A study of Mus musculus with 2 samples.

Results

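Histone genes were examined in 2 libraries of total RNA from mouse gastrocnemius, the large calf muscle. The 82 members are the protein-coding genes whose symbols begin with Hist1h, Hist2h, Hist3h, Hist4h, H2af, H3f3 or H1f, out of 55536 genes listed. Of these, 67 carry the Hist names of the replication-dependent clusters and 15 carry the H2af, H3f3 or H1f names of replacement histones. The choice used symbols and biotypes alone, and 9 further genes with these prefixes were left out because they are not annotated as protein coding.

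The libraries came from 2-month-old male mice of B6CASTF1/J, a cross of B6 with CAST supplied by The Jackson Laboratory. The input was 300 ng per library, ERCC spike-ins were added, and the label of the spike-in mix is for stranded libraries reduced in ribosomal RNA. The labels number the libraries as biological replicates 1 and 2, but they carry the same donor entry and no label states that they came from separate animals. The spread between them may therefore be partly technical, and with 1 group there was no comparison between conditions.

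DNA is wound around nucleosomes built from the core histones H2A, H2B, H3 and H4, and linker histone H1 binds where the DNA enters and leaves. Replication-dependent genes lie in clusters, have no introns as a rule, and are transcribed mainly while DNA is copied. Their messenger RNA usually has no poly(A) tail and ends just after a stem-loop that the protein Slbp binds. Replacement histones are made throughout the cell cycle from polyadenylated messenger RNA and take the place of the others in cells that no longer divide, which include the fibres of adult muscle.

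The stem-loops of 6 of the 7 Hist-named members with at least 10 TPM (a level per transcript length, scaled to the same total in every library) in both libraries are shown because they mark the ends of the replication-dependent messages. The model of the seventh, Hist1h2bc, holds no match. They are read from the GENCODE M21 transcripts, 5′ to 3′, with the 16-base stem-loop in capitals and up to 5 bases on each side. H2afx, the replacement gene with a match, is added.
Hist1h1c: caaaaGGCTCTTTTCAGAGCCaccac
Hist2h2aa2: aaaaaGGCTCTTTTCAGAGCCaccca
Hist1h4h: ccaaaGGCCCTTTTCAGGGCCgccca
Hist1h4c: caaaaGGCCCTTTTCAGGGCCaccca
Hist1h4m: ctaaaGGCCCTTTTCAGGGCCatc
Hist1h4d: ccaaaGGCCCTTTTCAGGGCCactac
H2afx: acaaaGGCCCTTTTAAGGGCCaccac

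The commonest form, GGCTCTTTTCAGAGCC, stood in 26 members, none of them an H4 gene, whereas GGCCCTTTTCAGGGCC stood in 7, all of them H4 genes. The consensus pattern of the histone stem-loop, searched on the transcript strand, was found in 46 of 67 Hist-named genes (68.7%) and in 1 of 15 replacement genes (6.67%). It was found in 111 of all 141767 transcripts (0.0783%). Of the 21 Hist-named genes without a match, 11 have annotated models that hold the coding sequence alone, in which the stem-loop could not be found.

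All 6 skeletal muscle markers stood above 1 TPM, and Acta1, the skeletal actin gene, reached 18494 TPM (replicate 1) and 16647 TPM (replicate 2). Expected counts totalled 4.29e+07 and 4.25e+07. Of 15 marker genes of dividing cells, 3 reached 1 TPM in both libraries, and the 15 together came to 14.9 and 12.9 TPM. These 3 were Pcna at 7.44 and 7.21 TPM, Ccne2 at 2.60 and 2.16 TPM and Mcm2 at 2.60 and 1.49 TPM. Of the others, Mki67, a marker of cycling cells, was at 0.01 and 0.18 TPM, Top2a at 0.07 and 0.03 TPM, and Ccnb1 had 0 reads in both. Mki67, Top2a and Ccnb1 are named here although they are not among the 3 highest of the list. Germ line markers summed to 0.08 and 0.14 TPM. In bulk RNA, fewer cells of a type and less RNA per cell cannot be told apart.

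Of the 82 histone genes, 38 reached 1 TPM in both libraries, 30 with Hist names and 8 with replacement names. At 10 TPM or more in both libraries stood 13 genes, 7 with Hist names and 6 with replacement names. Hist-named genes together reached 360 TPM (replicate 1) and 375 TPM (replicate 2), and replacement genes 252 TPM and 246 TPM. The replacement share of histone TPM was thus 41.1% and 39.5%, or 40.3 ± 1.11% on average (SD, n = 2). By expected counts, which do not correct for the greater length of replacement transcripts, they held 50.4% and 48.6%, and they held 58.3% and 55.8% by the estimated counts of the second tables.

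**Figure D1:**
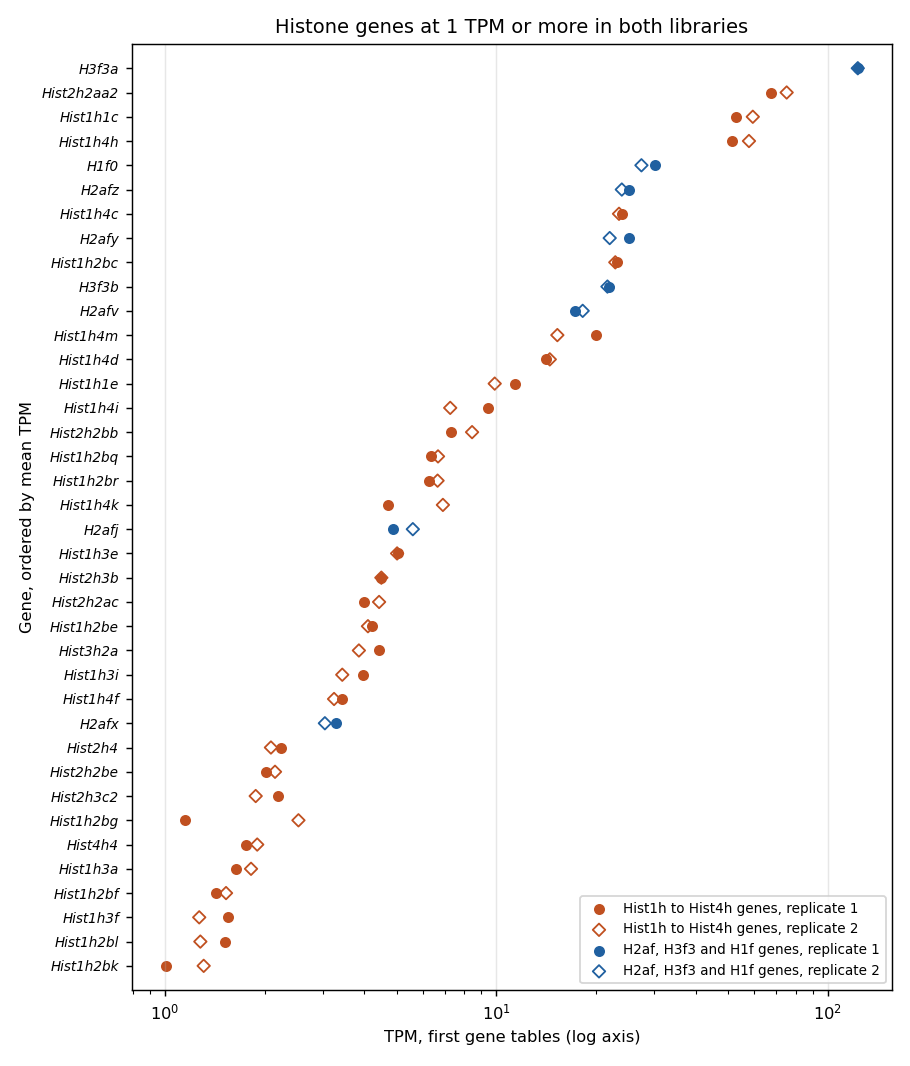
Level of the 38 histone genes at 1 TPM or more in both libraries, in TPM of the first gene tables on a log axis, with replicate 1 as filled circles and replicate 2 as open diamonds. H3f3a stands highest at 123.2 TPM in both libraries, and the 2 libraries of most genes lie close together, with Hist1h2bg (1.15 and 2.53 TPM) among the exceptions.

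The balance differed by histone type. For H3, replacement genes held 87.2% of TPM in replicate 1 and 87.3% in replicate 2. They held 48.3% and 45.0% for H2A, and 31.9% and 28.4% for H1. No gene with a replacement name encodes H2B or H4 under the naming rule, so all RNA of these types came from Hist-named genes, at 58.2 TPM and 60.1 TPM for the 18 H2B genes and at 134 TPM and 135 TPM for the 13 H4 genes. In TPM of the first tables the Hist-named sum was highest for H4 and lowest for H3, at 21.4 and 21.1 TPM. The highest type depended on the measure: H1 led by expected counts (3438 and 3670 reads), and H2A led in TPM of the second tables (148 and 149.9 TPM, against 131 and 149 TPM for H4).

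**Figure D2:**
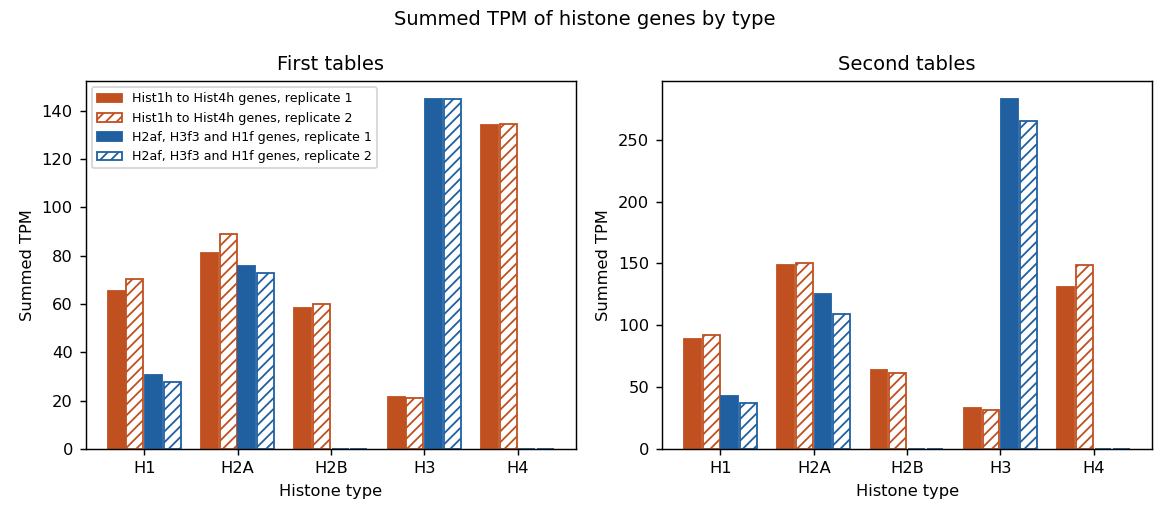
Summed TPM of Hist-named and replacement genes by histone type, with the first tables on the left and the second tables on the right and one bar per library (plain, replicate 1; hatched, replicate 2). In both kinds of table replacement genes exceed Hist-named genes for H3 (145 against 21.4 TPM in replicate 1 of the first tables) and stand below them for H1.

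H3f3a and H3f3b both encode H3.3, the replacement H3 that is placed at active genes by the Hira complex and at telomeres and heterochromatin by Daxx and Atrx. H3f3a (chr1:180800832-180813943, minus strand, mm10) was at 123.2 TPM in both libraries, the highest level of any member. H3f3b (chr11:116021912-116027962, minus strand) was at 21.9 TPM (replicate 1) and 21.6 TPM (replicate 2). The 2 libraries were nearly equal for both genes and the genes did not overlap. The log2 ratio of H3f3b over H3f3a was -2.50 ± 0.0122 (SD, n = 2), or 5.62-fold and 5.69-fold more H3f3a RNA per length. This counts all transcripts of each gene. Of H3f3b TPM, 43.8% and 47.3% lay in H3f3b-204 and 5.34% and 5.91% in H3f3b-203, processed transcripts with no annotated coding sequence. The retained-intron transcript H3f3a-202 held 0.519% and 0.487% of H3f3a TPM. The coding transcript H3f3b-201 was at 11.15 and 10.12 TPM, so the gap in coding RNA was wider. The ratio depended on the measure, at -3.10 in TPM of the second tables and -1.88 in expected counts, and H3f3a was the higher in each of them.

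The coding sequence tells these genes from the replication-dependent H3 genes. The stretch of residues 85 to 92, counted without the first methionine, is shown for the 2 H3.3 genes and for the 2 Hist-named H3 genes with the highest levels, with the codons of residues 87, 89 and 90 in capitals.
H3f3a: cagagtGCAgctATTGGTgctttg
H3f3b: caaagtGCAgccATCGGTgccctt
Hist1h3e: cagagcTCGgccGTCATGgctctg
Hist2h3b: cagagcTCGgccGTCATGgcgctg

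H3f3b encodes the same protein as H3f3a, though 76.7% of its coding bases are the same. Against the protein of H3f3a, Hist1h3e and Hist2h3b carry S31A, A87S, I89V and G90M, with the residue of H3f3a first. Residues 87, 89 and 90 are known to guide each H3 to its chaperone. The 4 genes Hist1h3a, Hist1h3g, Hist1h3h and Hist1h3i also carry S96C, the mark of H3.1, and together reached 6.24 and 6.26 TPM. Of the 12 Hist-named H3 genes, 6 reached 1 TPM in both libraries. Hist1h3e was at 5.06 and 5.02 TPM, Hist2h3b at 4.50 and 4.50 TPM, Hist1h3i at 3.97 and 3.43 TPM and Hist2h3c2 at 2.19 and 1.88 TPM. Hist1h3a was at 1.64 and 1.82 TPM, and Hist1h3f at 1.55 and 1.27 TPM. Every one of these genes lay below H3f3b in both libraries.

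Transcripts of H3f3a and H3f3b were assigned differently by the 2 kinds of table. In the first tables, 3 of 7 annotated H3f3a transcripts took nearly all reads: H3f3a-201 with 49.3% and 50.9%, H3f3a-207 with 29.3% and 25.4%, and H3f3a-205 with 20.9% and 22.8%. In the second tables H3f3a-207 led, with 46.4% and 43.3%. For H3f3b the first tables gave 72.0% and 68.5% of reads to H3f3b-201 and 0 to H3f3b-202, whereas the second tables gave 0 to H3f3b-201 and 81.7% and 83.6% to H3f3b-202. The 2 transcripts are 1993 and 2514 bases long. Levels of single transcripts of H3f3b are thus uncertain. The antisense gene H3f3aos, which overlaps H3f3a on the other strand, held 117 and 127 reads beside 3596 and 3669 for H3f3a.

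Among H2A variants, 5 of 9 replacement genes reached 1 TPM in both libraries. H2afz, which encodes H2A.Z.1, a variant found around transcription start sites, was at 25.1 TPM (replicate 1) and 23.9 TPM (replicate 2). H2afv, which encodes the closely related H2A.Z.2, was at 17.3 TPM and 18.2 TPM, so H2afz was the higher in both libraries. H2afy encodes macroH2A1, a variant with a large extra domain that marks silent chromatin, and was at 25.1 TPM and 22.0 TPM. H2afj, the gene of H2A.J, was at 4.87 TPM and 5.6 TPM. H2afx, whose product is phosphorylated at DNA breaks, was at 3.29 TPM and 3.04 TPM. Over all transcripts, H2afz and H2afy changed places between the libraries in the order of levels, so this order does not separate them. Of H2afy TPM, however, 26.6% and 29.1% lay in H2afy-204, a processed transcript with no annotated coding sequence. In the first tables the main coding transcript H2afy-202 was at 16.3 and 13.4 TPM, below H2afz-201 at 24.1 and 23.4 TPM.

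The second macroH2A gene, H2afy2, was at 0.14 TPM and 0.22 TPM, with 10 reads in replicate 1. H2afb1, H2afb2 and H2afb3, X-linked genes of the short testis variant H2A.B, had 0 reads in both libraries. Of the H2afy transcripts, H2afy-202 took 79.2% and 76.3% of reads in the first tables and H2afy-201 took 0.547% and 0.648%. The second tables gave H2afy-201 26.7% and 28.6%, so the share of these transcripts was not settled by the data.

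Linker histone RNA came mainly from 3 genes. Hist1h1c (chr13:23738808-23740367, plus strand), the gene of H1.2, was at 52.8 TPM (replicate 1) and 59.4 TPM (replicate 2). H1f0, the gene of H1.0, a linker histone that gathers in differentiated cells, was at 30.1 TPM and 27.4 TPM. Hist1h1e, the gene of H1.4, was at 11.4 TPM and 9.89 TPM, and it overlaps the H2B gene Hist1h2be on the same strand. The 3 genes did not overlap in level, and Hist1h1c held 80.9% and 84.6% of the TPM of the 6 Hist-named H1 genes. The remaining H1 genes were low: Hist1h1a at 0.59 and 0.54 TPM, Hist1h1b at 0.27 and 0.23 TPM, Hist1h1d at 0.22 and 0.19 TPM and H1fx at 0.39 and 0.42 TPM. The oocyte gene H1foo held 1 read in replicate 1 and 0 in replicate 2. The testis genes Hist1h1t and H1fnt had 0 reads in both.

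All 13 Hist-named H4 genes encode the same protein, and 9 of them reached 1 TPM in both libraries of the first tables. Hist1h4h (chr13:23531050-23531519, plus strand) led with 51.3 TPM (replicate 1) and 57.8 TPM (replicate 2), or 38.2% and 42.9% of H4 TPM. Hist1h4c was at 24 and 23.45 TPM, Hist1h4m at 19.97 and 15.3 TPM, Hist1h4d at 14.1 and 14.5 TPM and Hist1h4i at 9.45 and 7.26 TPM. Hist1h4h was above each of these in both libraries, while Hist1h4m and Hist1h4d lay within 1 TPM of each other in replicate 2. Lower levels were those of Hist1h4k at 4.72 and 6.90 TPM, Hist1h4f at 3.43 and 3.24 TPM, Hist2h4 at 2.24 and 2.09 TPM and Hist4h4 at 1.76 and 1.90 TPM. No H4 gene had 0 reads in both libraries of the first tables. In the second tables Hist1h4h also led, at 97.2 and 114 TPM of 131 and 149 TPM for H4. There Hist1h4d was at 0.178 and 0.597 TPM, Hist2h4 at 0.412 and 0.977 TPM, and Hist1h4k and Hist1h4f at 0. Hist1h4a (4.48 and 2.99 TPM) and Hist1h4n (2.32 and 2.15 TPM) passed 1 TPM there instead. The H4 shares and the genes above 1 TPM thus depended on the kind of table.

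Most Hist-named H2A RNA was assigned to 1 gene of a near-identical pair, Hist2h2aa2, which held 83.0% and 84.3% of the TPM and 68.4% and 72.3% of the reads of the Hist-named H2A genes. Hist2h2aa2 (chr3:96239749-96240276, minus strand) was at 67.2 TPM (replicate 1) and 75.1 TPM (replicate 2), and Hist2h2aa1 at 0 and 1.00 TPM. The second tables placed the pair the other way round, with Hist2h2aa2 at 0 in both libraries and Hist2h2aa1 at 127 and 132.3 TPM. All 100-base windows of the Hist2h2aa2 transcript occur in another gene, and 88.3% of those of Hist2h2aa1 do, so only the sum of the pair can be read. This sum was 67.2 and 76.1 TPM in the first tables. Gm20634, a gene on the same strand that overlaps Hist2h2aa1, held a further 313 and 244 reads. Hist3h2a was at 4.42 and 3.85 TPM and Hist2h2ac at 3.98 and 4.43 TPM, and the other H2A genes did not reach 1 TPM in both libraries. Hist1h2aa, a testis gene, had 0 reads.

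H2B was led by Hist1h2bc (chr13:23684199-23692908, plus strand), at 23.2 TPM (replicate 1) and 22.9 TPM (replicate 2), which was 39.8% and 38.02% of H2B TPM. Hist2h2bb was at 7.31 and 8.45 TPM and Hist1h2be at 4.23 and 4.10 TPM. Hist1h2be overlaps Hist1h1e on the same strand, with 310 and 303 reads beside 717 and 623 for Hist1h1e. Of the Hist1h2be TPM, 65.5% and 63.2% lay in Hist1h2be-203, a processed transcript with no annotated coding sequence. Hist1h2bq and Hist1h2br stood at 6.35 and 6.27 TPM in replicate 1 and at 6.67 and 6.65 TPM in replicate 2. They share 96.9% and 91.5% of their windows with other genes, and the posterior standard deviation of the Hist1h2bq count was 36.0 reads on 67.2, so the level of neither gene is settled. Hist2h2be was at 2.02 and 2.15 TPM, Hist1h2bg at 1.15 and 2.53 TPM, Hist1h2bf at 1.43 and 1.53 TPM, Hist1h2bl at 1.52 and 1.28 TPM and Hist1h2bk at 1.01 and 1.31 TPM. The testis gene Hist1h2ba had 0 reads.

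No read was counted in either library for 10 members. The limit that 0 reads sets is 3 reads, which is 0.0506 to 0.351 TPM depending on the gene. Besides the testis genes named above these were Hist1h2ab, Hist1h2an and Hist2h3c1, which share 52.4%, 83.3% and 100% of their windows with other genes, so their reads may have been counted elsewhere.

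The Hist-named genes lie on 4 chromosomes. The cluster on chromosome 13, between 21715763 and 23934851, holds 54 of the 67, of which 21 reached 1 TPM in both libraries, with sums of 264 and 270 TPM. The 10 genes on chromosome 3, between 96219865 and 96270132, summed to 89.8 and 99.98 TPM, 7 of them at 1 TPM or more. The RNA was uneven within the clusters: the 4 highest Hist-named genes held 54.3% and 57.5% of Hist-named TPM, and the 10 highest held 78.0% and 78.3%.

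Most H2A and H2B genes of the clusters sit head to head, with start sites close together. There were 12 such H2A and H2B pairs with start sites 176 to 306 bp apart. In 8 pairs the H2B gene had the higher TPM in both libraries and in 2 the H2A gene did, 1 pair changed order between libraries, and 1 pair had 0 in both genes. The count includes Hist1h2bq and Hist1h2br, whose levels are not settled, and in TPM of the second tables the H2B gene was the higher in 6 pairs and the H2A gene in 3. It also includes pairs with few reads. Hist1h2bp held 5.56 and 0.82 reads against 0 for Hist1h2an. In replicate 1 Hist1h2ag stood above Hist1h2bj by 0.92 against 0.90 TPM, on 12.2 reads (posterior standard deviation 5.62) and 11.3 reads (3.24). The widest gap was that of Hist1h2bc, at 23.2 and 22.9 TPM, and Hist1h2ac, at 0.33 and 0.23 TPM, whose start sites are 251 bp apart. In the pair Hist2h2ac and Hist2h2be, 239 bp apart, the H2A gene was the higher, at 3.98 and 4.43 TPM against 2.02 and 2.15 TPM. These 2 shared upstream regions are shown as the 250 bases before the start of the H2A gene (RefSeq, GRCm38.p6, minus strand, 5′ to 3′), at chr13:23683960-23684209 and chr3:96220881-96221130. Capitals mark CCAAT on either strand and TATAAA on the strand of the H2A gene.
Hist1h2ac: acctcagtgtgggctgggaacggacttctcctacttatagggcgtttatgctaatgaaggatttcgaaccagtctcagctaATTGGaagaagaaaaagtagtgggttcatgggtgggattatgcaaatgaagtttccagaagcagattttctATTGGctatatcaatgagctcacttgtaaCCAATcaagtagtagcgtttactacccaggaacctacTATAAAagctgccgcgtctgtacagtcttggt
Hist2h2ac: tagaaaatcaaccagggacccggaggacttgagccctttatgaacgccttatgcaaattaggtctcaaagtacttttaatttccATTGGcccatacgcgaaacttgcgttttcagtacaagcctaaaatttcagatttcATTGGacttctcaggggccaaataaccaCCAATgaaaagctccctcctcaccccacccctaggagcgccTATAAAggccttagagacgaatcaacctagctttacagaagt

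Each region holds 3 matches to CCAAT and 1 to TATAAA. RefSeq promoters of 250 bases before to 50 after the start were matched to 74 of the 82 members. CCAAT on either strand stood in 85.2% of 61 Hist-named promoters and in 69.2% of 13 replacement promoters, against 37.4% of all 32851 promoters. TATAAA on the gene's strand stood in 49.2%, 7.69% and 8.32%. The CCAAT share did not hold for H4. No match stood in Hist1h4b, Hist1h4f, Hist1h4h, Hist1h4i, Hist1h4j, Hist1h4k, Hist1h4m and Hist1h4n, while Hist1h4a, Hist1h4c and Hist1h4d had one. Hist1h4h, the highest H4 gene, had neither motif. Both genes of a head-to-head pair are counted, so shared bases enter more than once. The motifs share no bases, and a match describes letters and does not show a site in use.

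Where the annotated transcripts end divided the Hist-named RNA. Transcripts were grouped by whether the stem-loop lies within 100 bases of their end, which is the form of the message without a poly(A) tail, or whether the model runs on past it. In the first tables, the 23 transcripts that end at the stem-loop held 22.1% of Hist-named expected counts in replicate 1 and 23.0% in replicate 2. The 25 transcripts that run on held 61.0% and 60.6%, and the 27 without a match held 16.9% and 16.4%. Per length the order changed, and the transcripts that end at the stem-loop held 43.96% and 44.7% of TPM against 37.4% and 36.7% for those that run on. Few genes carried these shares. Hist2h2aa2 (67.2 and 75.1 TPM) and Hist1h4h (51.3 and 57.8 TPM) made up much of the 158 and 168 TPM that ended there. Among those that run on, Hist1h1c alone held 2648 and 2984 reads. These are shares of models as annotated, since 62 of the 67 genes have 1 model and reads past the stem-loop can be counted only where a model holds them.

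**Figure D3:**
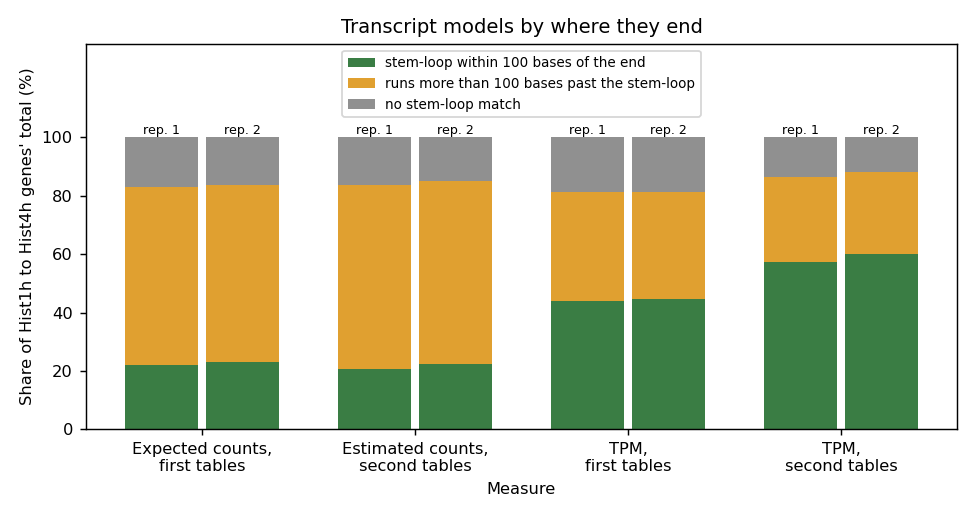
Share of the total of Hist-named genes (percent) in transcript models that end within 100 bases of the stem-loop, that run past it, or that have no match, by library and by measure. By counts most reads lie in models that run on (61.0% in replicate 1 of the first tables), whereas by TPM the models that end at the stem-loop hold the larger share (43.96%).

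Among the most abundant genes both kinds occurred. Hist2h2aa2 (528 bases, 35 bases after the stem-loop), Hist1h4h (470 bases, 46 after it) and Hist1h4m (402 bases, 3 after it) end at the stem-loop. Hist1h1c runs on for 840 bases, Hist1h1e for 1153, Hist1h4d for 770 and Hist1h4c for 454 bases. Hist3h2a runs on for 1643 bases and Hist4h4 for 2445 bases. Of the 23 genes that end at the stem-loop 8 reached 1 TPM in both libraries, against 13 of the 23 that run on and 9 of the 21 without a match.

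The level of a histone gene depended on the kind of table for many members. Of 39 members with a mean of at least 1 TPM in the first tables, 27 lay within 2-fold in the second, 10 were lower there and 2 were higher. The effective length, which divides counts into TPM, was 99 bases below transcript length in the first tables, but 343 bases (replicate 1) and 338 bases (replicate 2) below it for long transcripts in the second. Short histone transcripts thus got a higher TPM per read in the second tables, and counts compare the kinds of table more directly. Long transcripts did so too. H1f0, with 2055 bases, held 2022 reads in replicate 1 of the first tables and 2032 in the second, at 30.1 and 41.9 TPM. Equal reads therefore did not give equal TPM, and the 2-fold limits above take no account of this.

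By counts, H4 stood apart. The 13 H4 genes held 2560 reads in replicate 1 and 2559 reads in replicate 2 in the first tables, and 732 and 883 reads in the second, which is 28.6% and 34.5%. For the Hist-named genes of the other types this share was 96.7% and 96.8% (H1), 93.8% and 90.4% (H2B), 86.2% and 82.7% (H2A), and 80.0% and 79.5% (H3). For replacement genes it lay between 99.2% and 106%. Hist1h4d held 504 and 518 reads in the first tables but 4 and 14 reads in the second, although none of its 100-base windows occur in another gene. Hist1h4c held 594 and 581 reads against 64 and 122 reads. Of 8063 protein-coding genes with at least 200 reads in replicate 1 of the first tables, 15 (0.186%) were over 8-fold lower by count in the second, and 3 of these were among the 17 members at that depth: Hist1h4c, Hist1h4d and Hist2h2aa2. What sets these genes apart was not tested.

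Among members with at least 20 reads over both libraries, those farthest below their first-table TPM, on the scale of log2 of the ratio with 0.1 added to each mean, were Hist2h2aa2 at -9.48, Hist1h2br at -6.04, Hist1h4k at -5.89, Hist1h4f at -5.10 and Hist1h4d at -4.89. Hist1h2br, Hist1h4k and Hist1h4f were at 0 in both libraries of the second tables. The farthest above among these members were Hist1h4a at 2.29, Hist1h2bf at 2.04, Hist1h3b at 2.01, Hist1h1d at 1.63 and Hist1h2bb at 1.60. Below 20 reads, 3 members lay farther above, Hist2h2aa1 at 7.75, Hist1h2ad at 3.26 and Hist1h2ae at 2.39. Hist1h3b was at 0.64 and 1.18 TPM in the first tables and at 3.18 and 4.78 TPM in the second. Hist1h2bb was at 0.89 and 0.75 TPM against 3.10 and 2.28 TPM.

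**Figure D4:**
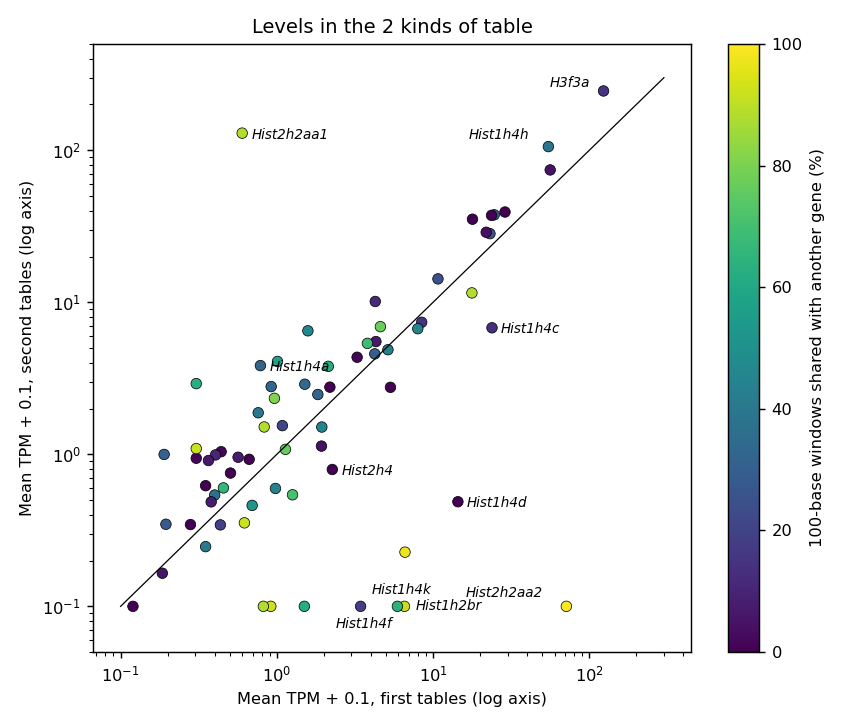
Mean TPM with 0.1 added in the first (x axis) and second tables (y axis) of each member above 0 in either, both on log axes, coloured by the percentage of 100-base windows shared with another gene; the line marks equal values. Hist2h2aa1 lies far above the line and Hist2h2aa2 far below it, and they share 88.3% and 100% of their windows, while Hist1h4d lies far below the line and shares 0%.

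Hist-named genes shared more sequence with other genes than replacement genes did. The median Hist-named gene shared 37.1% of its 100-base windows with another gene, and 25 of 67 shared more than 50%. The median of the replacement genes was 0%, and 9 of 15 shared none. Among members with at least 20 reads over both libraries, the posterior standard deviation of the count in replicate 1 had a median of 43.2% of the count in the 13 genes with more than 50% shared windows, and of 1.56% in the 37 others. The excluded gene H3f3c held 45.6 and 46.8 reads, and Hist1h2al held 92.1 and 104 reads in the first tables and 0 in the second.

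The libraries were compared gene by gene with an exact two-sided conditional binomial test of the rounded expected counts, scaled by TMM and adjusted over all genes tested. It compares these 2 libraries and has no replicate check. Of the 82 members, 51 had the 20 reads needed and 31 were not tested. Of the 51, 7 (13.7%) passed an adjusted p of 0.05, against 26.2% of all 14827 genes tested. Higher in replicate 2 were 5 members, against 14.4% of all genes, and higher in replicate 1 were 2, against 11.7%. A fold of at least 2 was also reached by 3 members, against 3.15% of all genes. The median log2 ratio of replicate 2 over replicate 1 was 0.03 over the 51 members and 0.00 over all genes, and 45 of the 51 lay within 1.5-fold, against 87.4% of all genes.

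The differences in members with over 1000 reads were small. Hist1h1c held 2648 reads in replicate 1 and 2984 reads in replicate 2, a log2 ratio of 0.22 (95% interval 0.14 to 0.30, adjusted p = 1.1e-07, exact binomial test). Hist1h4h had a log2 ratio of 0.22 (0.07 to 0.38, adjusted p = 0.019, exact test). The counts placed on Hist2h2aa2 had one of 0.21 (0.08 to 0.33, adjusted p = 0.0050, exact test), but they cannot be told from those of Hist2h2aa1. The pair together held 991 and 1125 reads in the first tables and 880 and 967 reads in the second, where Hist2h2aa2 had 0. H2afy held 1299 reads in replicate 1 and 1104 reads in replicate 2, a log2 ratio of -0.19 (-0.30 to -0.07, adjusted p = 0.0087, exact test). It was the replacement gene that passed, of 10 tested. Hist1h4h no longer passed when scaled by total counts (adjusted p = 0.054), and H2afy no longer passed when scaled by ERCC counts (adjusted p = 0.077).

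The 3 members past 2-fold had few reads, which the authors' tables split among copies. Hist1h2bg held 20.5 reads (posterior standard deviation 7.80) in replicate 1 and 45.2 reads (11) in replicate 2, a log2 ratio of 1.20 (0.43 to 2.06, adjusted p = 0.0064, exact test). In the second tables its log2 ratio was 0.20 and did not pass (adjusted p = 0.94). Hist1h4a held 3.59 reads (2.04) in replicate 1 and 17.1 reads (3.55) in replicate 2, a log2 ratio of 2.01 (0.52 to 4.17, adjusted p = 0.018, exact test). In the second tables it went the other way, at -0.44, and did not pass (adjusted p = 0.60). Hist1h4n held 19.6 reads (22.2) in replicate 1 and 0 reads (13.3) in replicate 2 (adjusted p = 1.8e-05, exact test). Its posterior mean counts were 32.4 and 14.4, a log2 ratio of -1.12 (adjusted p = 0.047, exact test), and the second tables held 8.09 and 7.72 reads, too few to be tested. The binomial intervals cover counting error and not this splitting. Hist1h4n shares 80.7% of its windows with other genes. Hist1h4m and Hist1h4n together held 227 and 159 reads.

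**Figure D5:**
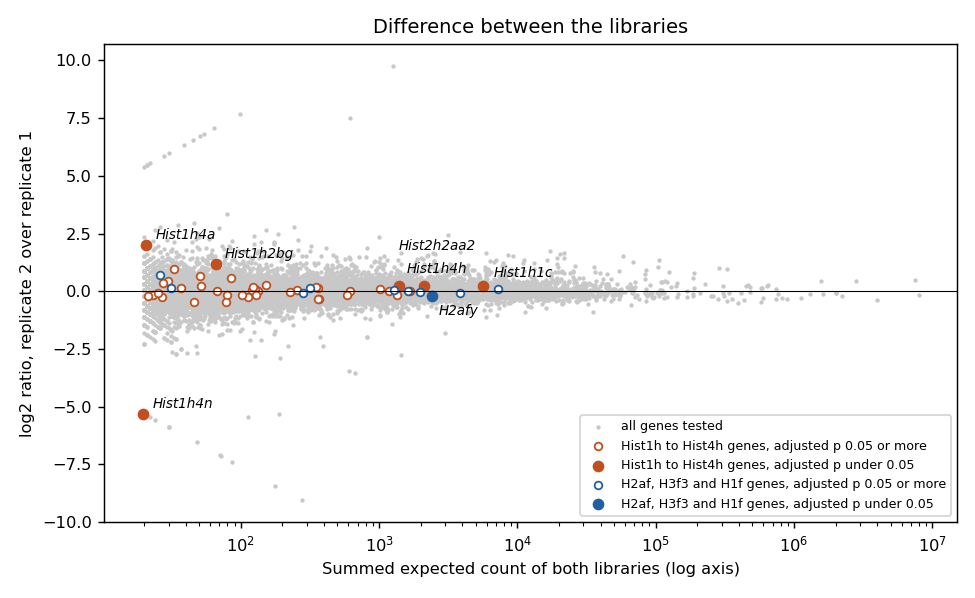
Log2 ratio of replicate 2 over replicate 1 against the summed expected count of both libraries (log axis) for all 14827 genes tested (grey) and the 51 members tested, filled where the adjusted p was under 0.05. The 4 called members with over 1000 reads have ratios from -0.19 to 0.22, and the 3 beyond 2-fold have fewer than 70 reads.

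Markers of other cells also differed between the libraries. By the exact test of scaled counts, all 4 endothelial markers were higher in replicate 2, and 5 of 6 skeletal muscle markers in replicate 1. The endothelial sums were 36.5 and 40.6 TPM, but for Pecam1 the TPM went the other way (14.55 and 14.15). Of the 6 leukocyte markers 1 passed the test as higher in replicate 1, with sums of 5.75 and 3.96 TPM. Of the 5 erythroid markers 1 passed as higher in replicate 1, with sums of 237 and 216 TPM. No satellite cell marker passed, with sums of 10.7 and 9.48 TPM, and none of the 6 dividing-cell markers tested did. Their part in the differences of the histone genes was not tested.

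Genes that process and handle histones stood at widely different levels and changed little between the libraries. The 17 genes that make or degrade the stem-loop messages summed to 149 and 158 TPM, with 15 at 1 TPM or more in both libraries. Led by Snrpb (48.8 and 49.3 TPM), Sympk (27.8 and 29.5 TPM) and Snrpd3 (25.8 and 29.6 TPM), the list holds spliceosomal proteins also found in the U7 particle, and symplekin, a scaffold of the cleavage complex. Slbp itself, named here after its value was seen, was at 2.46 and 2.68 TPM, and Zfp473, known in human as a part of the U7 machinery, had 0 reads. Lsm10 and Lsm11, named after their values were seen, were at 2.85 and 2.99 TPM and at 0.70 and 0.75 TPM. Lsm11 and Zfp473 were the genes of this list below 1 TPM. Of 16 tested, 2 were higher in replicate 2, Snrpd3 at a log2 ratio of 0.22 and Cpsf3 at 0.24, and none in replicate 1. Over all genes tested the shares were 14.4% and 11.7%. The median log2 ratio was 0.08.

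Of the 20 chaperones of H3 and H4, 17 reached 1 TPM in both libraries. Rbbp7 was at 32.2 and 30.1 TPM, Rbbp4 at 15.1 and 17.0 TPM, and Atrx, a partner of Daxx in placing H3.3, at 15.2 and 14.5 TPM. Hira, also named after its value was seen, was at 9.23 and 8.50 TPM. The genes below 1 TPM were Asf1b at 0.09 and 0.10 TPM, Chaf1a at 0.18 and 0.26 TPM and Chaf1b at 0.08 and 0.09 TPM. Chaf1a and Chaf1b encode 2 of the subunits of the factor that places H3 behind the replication fork. Of 18 tested, Supt6 was higher in replicate 1 (log2 ratio -0.13) and Dnajc9 in replicate 2 (0.52), with a median of 0.02. The shares over all genes tested were 11.7% and 14.4%.

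All 19 genes of H2A variant exchange and H1 binding reached 1 TPM, led by Nap1l4 (73.6 and 76.8 TPM), Ncl (41.4 and 38.7 TPM) and Set (36.8 and 36.5 TPM), which are histone-binding proteins. Among the 19, the test found 4 higher in the first replicate and 2 in the second, against 11.7% and 14.4% of all genes tested. The median log2 ratio of the 19 was -0.04. Of 7 centromere and germ line histones and factors outside the naming rule, Hjurp, the chaperone of the centromere H3, was at 2.38 and 2.41 TPM, Cenpa at 0.49 and 1.18 TPM and H2al1m at 0.13 and 0.27 TPM. The 4 others had 0 reads. No gene of these 4 lists passed both the adjusted p and the 2-fold threshold.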

How the data were processed

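Each library had a gene and a transcript table (the first tables) and a transcript table of another kind (the second tables). The authors deposited expected counts and TPM in the first, per the file headers, with a posterior standard deviation, a posterior mean TPM and TPM bounds read as scores, in the layout of RSEM. The second tables deposited by the authors hold estimated counts and TPM in the layout of kallisto and were summed to genes. The deposited notes give mm10 and GENCODE M21. Not given in the sources used here were the programs, their versions and the use of strand.

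Members were all genes meeting the naming rule. Members, gene lists and tests were chosen with earlier results of these data known. Expected counts totalled 4.29e+07 (replicate 1) and 4.25e+07 (replicate 2), of which ERCC RNAs took 0.468% and 0.442%. The 26248 entries with numeric identifiers, which held 1 and 0 reads, were left out. Values are given per library or as mean ± SD (n = 2). Expected counts were rounded, scaled by TMM (edgeR 4.0.16, R 4.3.3), and genes with 20 or more counts over both libraries were compared by an exact two-sided binomial test with Benjamini-Hochberg adjustment over all genes, and ratios had 0.5 added to each count. Intervals (95%, Clopper-Pearson) and the floor of 3 reads cover counting error only. The test was run on counts simulated around the mean of these libraries with counting error alone. They hold no spread between animals and no splitting of reads among copies, so this does not give its error rate on the real libraries. Shared windows were runs of 100 bases found in transcripts of another gene. Alternatives were DESeq2 1.42.0 size factors, total and ERCC counts, other minimum counts, posterior means and the second tables. Named genes were members at 1 TPM or more in both libraries or past the adjusted p, every H2af, H3f3 and H1f gene, the 5 farthest each way between the kinds of table, and the 3 highest of each list.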

Additional observations from a re-analysis of the deposited data

How the results depend on the processing

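The share of histone TPM held by replacement genes was 47.6% in the second tables, 49.5% by expected counts, 57.1% by estimated counts of the second tables (chosen after seeing the data) and 38.4% over protein-coding transcripts alone, against 40.3%, and 39.5% to 41.1% without either replicate. The log2 ratio of H3f3b over H3f3a was -3.10 in the second tables, -1.88 by expected counts and -2.45 with 1 TPM added, against -2.50, and -2.51 to -2.49 without either replicate. The share of Hist-named counts in transcripts that end at the stem-loop was 21.4% in the second tables and 44.4% by TPM, against 22.5%, and 22.1% to 23.0% without either replicate. The log2 ratio of Hist1h4a reversed to -0.44 in the second tables. The 38 members at 1 TPM in both libraries became 30 at 2 TPM, 47 at 0.5 TPM and 37 in the second tables. Members different between the libraries numbered 7 to 10 over the alternatives, but they were not always the same members. In the second tables H2afy, Hist1h1c and Hist1h4h passed again, beside H3f3a, Hist1h4c, Hist2h4 and Hist2h2aa1, which had not passed. H3f3a also passed with ERCC counts and H1f0 with total counts. The median log2 ratio of all members tested ran from -0.01 with total counts to 0.08 with ERCC counts. The cause was not tested. No paired analysis was possible because the series holds 1 group. With 2 libraries of 1 group, spread is estimated from a single difference, and counts of genes that share sequence also carry the error of read assignment.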
